A study of Mus musculus with 8 samples.

Results

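This account covers 10 genes of the mouse B cell receptor, its co-receptors and B cell identity: Cd79a, Cd79b, Cd22, Ms4a1, Cr2, Blk, Fcrla, Bank1, Pax5 and Pou2af1. They were taken by gene name from a table of 1428 genes, and all 10 names were found. The names had been chosen by measured values of these same libraries, namely their higher level in KO than in WT tumours. RNA sequencing of colon tumours compared 4 KO libraries with 4 WT libraries. KO libraries came from mice titled miR-29ab1Vilin-KO, in which the miR-29ab1 locus was disrupted in intestinal epithelial cells. WT libraries came from wild-type mice. Both groups were on the C57BL/6N background, and all mice had been given the carcinogen azoxymethane and the colitis-inducing agent dextran sodium sulfate to raise tumours. The design text places the disruption in the epithelium, and the state of the locus in B cells was not measured. Neither the recombinase used, nor the age of the mice, nor whether libraries came from separate animals is stated in those labels, so the spread between libraries may be partly technical.

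A B cell recognises antigen through a surface immunoglobulin that cannot signal by itself. The chains encoded by Cd79a and Cd79b pass the signal on, and Src family kinases such as Blk phosphorylate them. Co-receptors then raise the signal (Cr2) or damp it (Cd22). Pax5 is the transcription factor that holds cells to the B lineage, and Pou2af1 is a co-activator that works with octamer-binding factors at immunoglobulin and other B cell promoters. In the colon, B cells are found in lymphoid follicles and in the lamina propria.

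The disrupted locus produces miR-29, a small RNA that lowers the level of transcripts carrying a match to its seed. The mature sequences of that locus are shown because they define the lesion, with the seed, bases 2 to 8 from the 5′ end, in capitals. Both come from RefSeq on GRCm38.p6, and both miRNAs share the seed. The same mmu-miR-29b-3p is also produced from Mir29b-2 on chromosome 1.
mmu-miR-29a-3p (chr6:31062673-31062694, minus strand): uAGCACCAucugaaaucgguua
mmu-miR-29b-3p (from Mir29b-1, chr6:31063025-31063047, minus strand): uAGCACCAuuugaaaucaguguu
The match to this seed in DNA letters, TGGTGCT, was searched in the longest annotated 3′ UTR of each gene (GENCODE M21). It was found in 0 of the 10 B cell genes, whose 3′ UTRs ran from 466 bases (Cd79b) to 6749 bases (Pax5). Among the 1030 protein-coding genes of the table that could be searched, 167 (16.2%) had a match. No row of the table was named Mir29a or Mir29b-1, so the disrupted locus itself is not analysed here.

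Promoters are shown for 3 of the genes because the 10 genes followed a like order over libraries, described below. RefSeq windows on GRCm38.p6 from 250 bases before to 50 bases after the start were matched for 7 of the 10 genes, and those of Cd79b, Ms4a1 and Blk were not matched. Capitals mark exact matches, on either strand, to the letters CAGGTG (an E box), GGAAGT (an Ets core), GGGAAT (an EBF core) and TGCAAAT (the octamer ATGCAAAT without its first base, which any octamer also holds). The motifs were chosen with the sequences available.
Cd79a (chr7:24897247-24897546, plus strand): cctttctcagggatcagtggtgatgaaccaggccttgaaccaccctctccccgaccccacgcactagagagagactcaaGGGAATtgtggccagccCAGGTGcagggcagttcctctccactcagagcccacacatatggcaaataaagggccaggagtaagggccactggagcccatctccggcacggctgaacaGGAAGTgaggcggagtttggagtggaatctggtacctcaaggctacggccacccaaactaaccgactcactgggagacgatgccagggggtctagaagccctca
Bank1 (chr3:136326017-136326316, minus strand): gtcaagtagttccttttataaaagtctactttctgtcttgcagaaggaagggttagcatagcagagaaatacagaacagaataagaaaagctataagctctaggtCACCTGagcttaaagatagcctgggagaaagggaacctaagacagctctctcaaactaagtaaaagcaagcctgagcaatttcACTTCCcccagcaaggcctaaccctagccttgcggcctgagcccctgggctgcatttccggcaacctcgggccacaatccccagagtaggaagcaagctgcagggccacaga
Pou2af1 (chr9:51213440-51213739, plus strand): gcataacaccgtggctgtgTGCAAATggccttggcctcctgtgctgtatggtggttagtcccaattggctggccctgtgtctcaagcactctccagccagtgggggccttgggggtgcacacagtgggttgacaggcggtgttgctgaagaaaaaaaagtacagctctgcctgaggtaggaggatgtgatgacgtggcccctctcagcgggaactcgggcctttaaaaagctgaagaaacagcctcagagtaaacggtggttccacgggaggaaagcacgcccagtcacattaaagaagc
The E box was found in 5 of the 7 promoters (Cd79a, Cd22, Cr2, Fcrla and Bank1), against 20.2% of 32851 promoters of the same length. The Ets core was found in 3 (Cd79a, Cr2 and Bank1), against 23.8% of all promoters. Cd79a alone of the 7 held the EBF core, which 13.1% of all promoters hold. Pou2af1 alone held TGCAAAT, which 4.02% of all promoters hold. The full octamer was found in 0 of the 7 and in 1.74% of all promoters, and the Pax5 window held none of these letters. These are matches of letters and not measured binding sites.

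Values are normalized counts, that is, reads per gene divided by a size factor for the library. The table lists genes whose unadjusted p was below 0.05 when the authors compared KO and WT, so each of the 10 genes had already passed that comparison and its difference is described here without a further test. The reads of all listed genes summed to 1316787 to 2180787 in KO libraries and to 1202677 to 1268646 in WT libraries. Chi-square per degree of freedom was taken over listed genes above a minimum read count in the libraries compared, and abundant genes weigh most in it. By this measure KO 4 stood apart: the value was 313 to 428 against the other KO libraries, and 21.8 to 28.1 among those 3. Results are therefore also given without KO 4. WT 4 also differed from the other WT libraries, to a smaller degree: 65.7 to 103 against them, where WT 1, WT 2 and WT 3 had 30.1 to 38.6 among themselves. Of the epithelial markers, Lgals4, a galectin of the intestinal lining, was listed, with 35510, 39648, 32521 and 70224 normalized counts in KO libraries 1 to 4, against 27129, 32012, 33046 and 13988 in WT libraries 1 to 4. KO 4 held the most and WT 4 the least. In tumour pieces, more B cells and more RNA per B cell cannot be told apart.

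All 10 genes were higher in KO tumours by the authors' deposited table, where 829 of the 1428 listed genes were higher (58.1%). Their log2 fold changes of KO over WT ran from 1.56 (Pou2af1) to 4.42 (Pax5), with a median of 2.70. The median over all listed genes was 0.48, and over those higher in KO it was 1.00. Bank1 alone of the 10 had an adjusted p below 0.05 in the authors' deposited table, a threshold passed by 8 of the 1428 listed genes (0.560%). Cd22, Cd79a and Pou2af1 followed with adjusted p between 0.0610 and 0.0982, and the other 6 reached 0.157 (Pax5) to 0.678 (Blk). For 4 genes (Cd79a, Cd22, Bank1 and Pou2af1) every KO library was above every WT library, and 23.9% of all listed genes were separated in that way. For the other 6, KO and WT libraries overlapped. Standard errors of these log2 fold changes, from fitting DESeq2 again to the recovered reads, ran from 0.40 (Pou2af1) to 1.30 (Pax5). The 10 genes lie on 8 chromosomes.

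**Figure D1:**
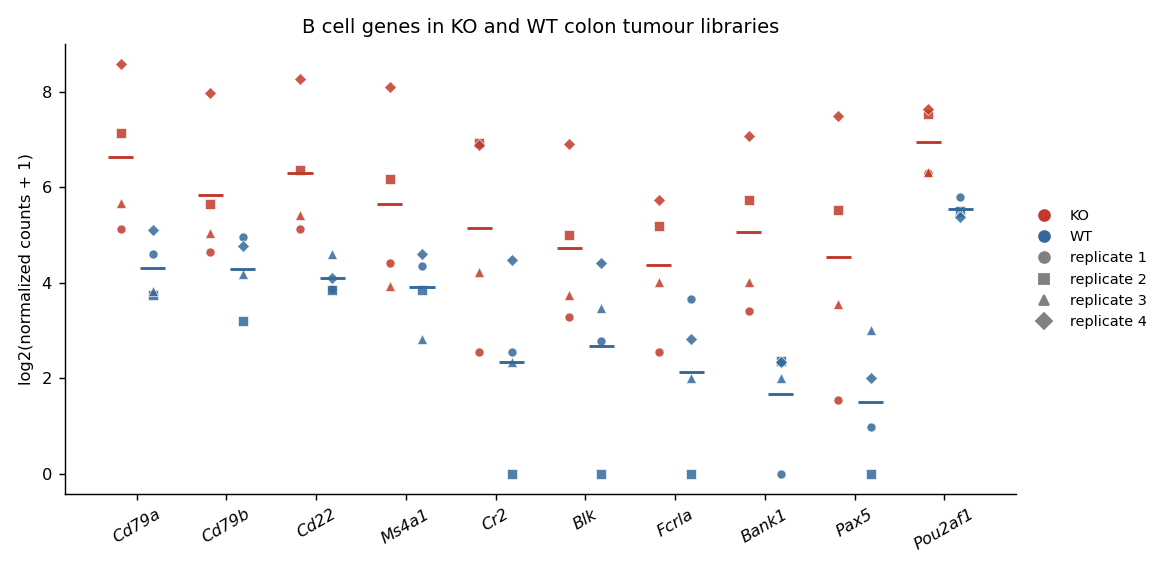
Normalized counts of the 10 B cell genes, as log2(value + 1), in 4 KO libraries (red, left of each pair) and 4 WT libraries (blue, right). Symbols mark the replicate, bars mark the group mean on the log2 scale, and KO 4 (red diamonds) is the top KO library for every gene but Cr2.

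Cd79a and Cd79b encode the signalling chains of the receptor. Cd79a (MGP_C57BL6NJ_G0032295, on chromosome 7 from 24081439 to 24086379, plus strand, in the table's coordinates) had 33.7, 139, 49.8 and 379.6 normalized counts in KO libraries 1 to 4, against 23.3, 12.3, 13.1 and 33.4 in WT libraries 1 to 4. KO 4 was the highest and KO 2 the next, and the lowest KO library was above the highest WT library by less than 1 normalized count. The means were 151 ± 159.6 in KO and 20.6 ± 9.92 in WT (SD, n = 4 each), a ratio of 7.33, or 3.62 without KO 4.

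Cd79b (MGP_C57BL6NJ_G0019696, chromosome 11 from 112954881 to 112958302, minus strand) had 24.1, 49.3, 32.0 and 251 normalized counts in KO libraries 1 to 4, against 30.2, 8.22, 17.2 and 26.3 in WT libraries 1 to 4. KO 1 lay below WT 1 and WT 4, so the groups overlapped. The means were 89.2 ± 108.7 in KO and 20.5 ± 9.81 in WT (SD, n = 4 each), a ratio of 4.36 that came to 1.72 without KO 4. By the authors' deposited table the log2 fold change was 2.87 for Cd79a (adjusted p = 0.0648) and 2.12 for Cd79b (adjusted p = 0.449).

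Cd22, Ms4a1 and Cr2 encode surface proteins that sit with or near the receptor. Cd22, a lectin that binds sialic acid and damps receptor signalling, had 33.7, 81.4, 41.8 and 305 normalized counts in KO libraries 1 to 4, against 13.6, 13.4, 23.3 and 16.2 in WT libraries 1 to 4. The groups did not overlap. Its mean was 115.6 ± 128 in KO and 16.6 ± 4.62 in WT (SD, n = 4 each), and the authors' deposited table gave a log2 fold change of 2.80 (adjusted p = 0.0610). The ratio of means for Cd22 was 6.96, or 3.15 without KO 4. Ms4a1 encodes CD20, a surface protein of mature B cells. Ms4a1 had 20.2, 70.7, 14.2 and 272 normalized counts in KO libraries 1 to 4, against 19.5, 13.4, 6.07 and 23.3 in WT libraries 1 to 4. KO 1 and KO 3 lay inside the WT range, and Ms4a1 was the one gene of the 10 whose lowest KO library was KO 3 and not KO 1. The authors' deposited table gave it a log2 fold change of 2.60 (adjusted p = 0.336). Its ratio of KO to WT means was 6.07, or 2.26 without KO 4.

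Cr2 encodes the complement receptor CD21, which is carried by B cells and also by follicular dendritic cells. Cr2 had 4.82, 120.0, 17.8 and 117 normalized counts in KO libraries 1 to 4, against 4.86, 0, 4.05 and 21.2 in WT libraries 1 to 4. KO 2 and KO 4 were nearly level, at 46.2% and 45.2% of the KO sum, and KO 1 and KO 3 lay inside the WT range. Cr2 was the one gene of the 10 not highest in KO 4, where its level was 0.978 of that in KO 2. The authors' deposited table gave a log2 fold change of 3.11 (adjusted p = 0.430). Without KO 4 the ratio of KO to WT means for Cr2 was 6.31, against 8.62 with it. In the table's coordinates Cd22 spans 30877839 to 30893724 of chromosome 7, Ms4a1 spans 9020807 to 9039416 of chromosome 19 and Cr2 spans 208691087 to 208732026 of chromosome 1, all on the minus strand.

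Blk, Fcrla and Bank1 encode proteins inside the cell. Blk, the Src family kinase named for B lymphocytes, had 8.68, 31.1, 12.5 and 118 normalized counts in KO libraries 1 to 4, against 5.84, 0, 10.1 and 20.2 in WT libraries 1 to 4. KO 1 and KO 3 fell inside the WT range. Blk had the largest unadjusted p of the 10 genes in the authors' deposited table, with a log2 fold change of 2.24 (adjusted p = 0.678), and was the closest to the limit of 0.05 on the unadjusted p by which genes were listed. The ratio of KO to WT means for Blk was 4.72, or 1.92 without KO 4. Fcrla is an Fc receptor-like protein that stays inside B cells. It had 4.82, 35.4, 15.1 and 51.9 normalized counts in KO libraries 1 to 4, against 11.7, 0, 3.03 and 6.07 in WT libraries 1 to 4, so that KO 1 alone lay inside the WT range. By the authors' deposited table its log2 fold change was 2.36 (adjusted p = 0.613), and the ratio of means was 5.16, or 3.55 without KO 4.

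Bank1 is a B cell scaffold protein with ankyrin repeats that links the receptor to kinases and calcium release. Bank1 had 9.64, 52.5, 15.1 and 134 normalized counts in KO libraries 1 to 4, against 0, 4.11, 3.03 and 4.05 in WT libraries 1 to 4. The lowest KO library held more than the highest WT library. The WT values rest on 0, 4, 3 and 4 reads, and the KO values on 10, 49, 17 and 137. Bank1 averaged 52.8 ± 57.4 in KO and 2.80 ± 1.93 in WT (SD, n = 4 each), a ratio of 18.9, or 9.21 without KO 4. In the authors' deposited table Bank1 ranked 4 by p, with a log2 fold change of 4.24 (adjusted p = 0.0437). Refitting the recovered reads of the listed genes with DESeq2 gave an adjusted p of 0.0314 with all libraries and 0.253 without KO 4, and edgeR's quasi-likelihood test gave 0.867. Blk lies on chromosome 14 (60640515 to 60685447), Fcrla on chromosome 1 (182516067 to 182528877) and Bank1 on chromosome 3 (143825953 to 144108848), all on the minus strand.

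Pax5 and Pou2af1 are the transcription regulators, and they stood at opposite ends of the range of fold changes. Pax5 (chromosome 4, 44326582 to 44525409, minus strand) had 1.93, 45.0, 10.7 and 179 normalized counts in KO libraries 1 to 4, against 0.973, 0, 7.08 and 3.04 in WT libraries 1 to 4. Those values correspond to 2, 42, 12 and 183 reads in KO and to 1, 0, 7 and 3 reads in WT. KO 1 lay inside the WT range, and KO 4 held 75.7% of the KO sum and 92.9 times the level of KO 1. The mean was 59.2 ± 82.1 in KO and 2.77 ± 3.14 in WT (SD, n = 4 each). The ratio of means was 21.3, or 6.93 without KO 4, and the authors' deposited table gave a log2 fold change of 4.42 (adjusted p = 0.157).

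Pou2af1 (chromosome 9, 51543636 to 51571139, plus strand) had 77.1, 184, 79.2 and 199.6 normalized counts in KO libraries 1 to 4, against 54.5, 44.2, 43.5 and 40.5 in WT libraries 1 to 4. Every KO library was above every WT library, and KO 2 and KO 4 were close to each other. The mean was 135 ± 66.0 in KO and 45.7 ± 6.10 in WT (SD, n = 4 each). Its coefficients of variation, 48.9% in KO and 13.4% in WT, were the lowest of the 10 genes, for which they reached 139% in KO (Pax5) and 124% in WT (Cr2). The ratio of means was 2.96, or 2.49 without KO 4, so Pou2af1 had the smallest fold change of the 10 and depended least on KO 4. The log2 fold change of Pou2af1 was 1.56 by the authors' deposited table (adjusted p = 0.0982).

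Over the KO libraries the genes followed nearly the same order. For 8 of the 10 the order was KO 4, KO 2, KO 3 and KO 1 from high to low, an order held by 166 of the 1428 listed genes (11.6%) and by 150 of the 829 listed genes that were higher in KO (18.1%). Cr2 (KO 2 just above KO 4) and Ms4a1 (KO 1 above KO 3) were the exceptions. KO 4 and KO 2 were the highest libraries for all 10, a count that was not made over all listed genes. A highest value in KO 4 was common in the table, at 622 of the 829 genes higher in KO (75.0%), against 9 of the 10 B cell genes. Set against the WT mean of each gene, the median ratio over the 10 genes was 1.24 in KO 1, 5.84 in KO 2, 2.39 in KO 3 and 16.5 in KO 4. KO 2 and KO 4 were above every WT library for all 10 genes, as they were for 82.1% and 95.5% of the 829 listed genes higher in KO. KO 3 was above every WT library for 7 of the 10, against 67.7% of those 829, and KO 1 for 4 of the 10, against 70.4%.

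**Figure D2:**
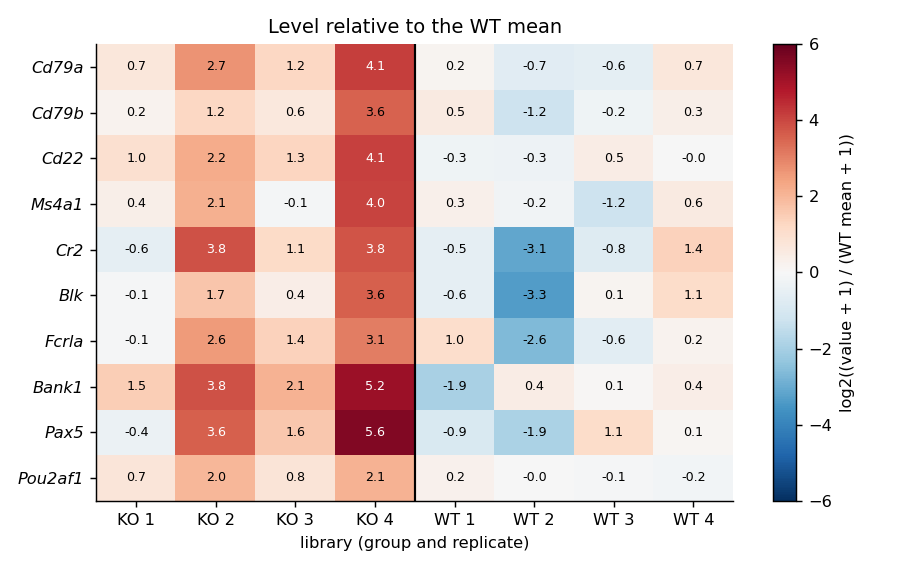
Level of each B cell gene in each library relative to the WT mean of that gene, as log2((value + 1) / (WT mean + 1)), with KO libraries left of the line and WT libraries right of it. KO 4 and KO 2 are above the WT mean for all 10 genes, and the lowest squares are Cr2, Blk and Fcrla in WT 2, where they were listed at 0.

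Among WT libraries the order was looser. WT 2 was the lowest for 7 of the 10 genes and was listed at 0 for Cr2, Blk, Fcrla and Pax5. WT 4 was the highest for 4 genes, WT 1 for 3, WT 3 for 2 and WT 2 for 1. The 10 genes summed to 219, 809, 288 and 2009 normalized counts in KO libraries 1 to 4, against 164, 95.5, 130.5 and 194 in WT libraries 1 to 4. KO 1 held little more than WT 4, whereas KO 4 held more than the other KO libraries together. The mean sum was 831 ± 828 in KO and 146 ± 42.6 in WT (SD, n = 4 each), and 439 ± 323 in KO without KO 4 (SD, n = 3).

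How far KO 4 set the KO total differed by gene. Its share of the KO sum was 36.9% for Pou2af1, 45.2% for Cr2 and 48.4% for Fcrla. The 7 other genes had 63.0% (Cd79a) to 75.7% (Pax5) of their KO sum in KO 4. The level in KO 4 was 5.10 times that in KO 2 for Cd79b, but 1.08 times for Pou2af1 and 1.47 times for Fcrla. The 2 libraries highest in B cell transcripts thus held these genes in different proportions.

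**Figure D3:**
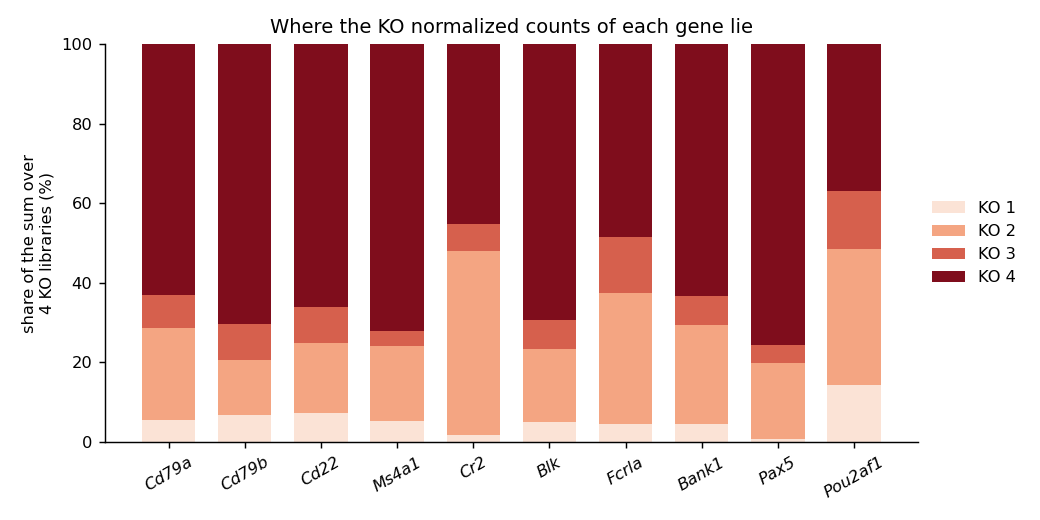
Share of the KO sum of each gene, in percent, that lay in each of the 4 KO libraries. KO 4 (darkest) holds 36.9% for Pou2af1 and 75.7% for Pax5, and KO 2 holds 46.2% for Cr2.

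Divided by gene length, Cd79a was the highest of the 10 in KO, at 103 ± 109.5 normalized counts per kilobase, followed by Cd79b (62.4 ± 75.9) and Pou2af1 (52.6 ± 25.7; SD, n = 4 each). In WT, Pou2af1 came first at 17.8 ± 2.38, with Cd79b at 14.3 ± 6.85 and Cd79a at 14.1 ± 6.81. These 3 levels overlapped over libraries within each group, and their order in KO rested on KO 4. Without it, Cd79a averaged 51.0 ± 39.0 per kilobase in KO, Pou2af1 44.3 ± 23.9 and Cd79b 24.6 ± 9.0 (SD, n = 3), and Pou2af1 was above Cd79b in each of KO 1, KO 2 and KO 3. Cd22, Blk, Fcrla and Ms4a1 followed, with means of 15.3 to 23.1 per kilobase in KO and 2.52 to 3.65 in WT, again within their spread of each other. Cr2, Bank1 and Pax5 were the lowest in both groups, at 6.68 to 7.16 per kilobase in KO and 0.313 to 0.830 in WT. Within the summed level per kilobase of the 10 genes, Pou2af1 made up 34.0, 25.0, 26.4 and 10.4% in KO libraries 1 to 4, against 28.7, 46.8, 33.2 and 20.0% in WT libraries 1 to 4. Its share was lowest in KO 4.

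The receptor chains were then set against the transcription regulators on this scale. Cd79a and Cd79b summed to 40.0, 130.1, 56.6 and 436 normalized counts per kilobase in KO libraries 1 to 4, against 37.1, 14.2, 21.0 and 41.3 in WT libraries 1 to 4. Pax5 and Pou2af1 summed to 30.3, 76.9, 32.1 and 98.0 in KO libraries 1 to 4, against 21.3, 17.2, 17.7 and 16.1 in WT libraries 1 to 4. The regulators' sums did not overlap between groups, whereas those of the chains did, with KO 1 between WT 1 and WT 4. Each pair was mixed, however: Pou2af1 and Cd79a did not overlap between groups, whereas Pax5 and Cd79b did. The ratio of chains to regulators was 1.32, 1.69, 1.76 and 4.45 in KO libraries 1 to 4, against 1.74, 0.825, 1.19 and 2.56 in WT libraries 1 to 4. KO 1, KO 2 and KO 3 lay inside the WT range and KO 4 above it, and the medians were 1.73 in KO and 1.46 in WT. The balance of chains and regulators thus overlapped between the groups.

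Each pair was also unequal within itself. Cd79a stood to Cd79b per kilobase as 1.38, 2.78, 1.53 and 1.48 in KO libraries 1 to 4, against 0.760, 1.47, 0.751 and 1.25 in WT libraries 1 to 4. KO 2 was the high one, and KO 1 lay below the highest WT library. Pax5 stood to Pou2af1 as 0.00725, 0.0708, 0.0391 and 0.260 in KO libraries 1 to 4, against 0.00518, 0, 0.0472 and 0.0217 in WT libraries 1 to 4. Pou2af1 supplied most of the regulators' sum in every library, and the part of Pax5 was largest in KO 4. KO 2 and KO 4 lay above the WT range of this ratio and KO 1 and KO 3 inside it. As background, Pax5 is shut off when B cells become plasma cells, whereas Pou2af1 is also expressed in plasma cells.

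**Figure D4:**
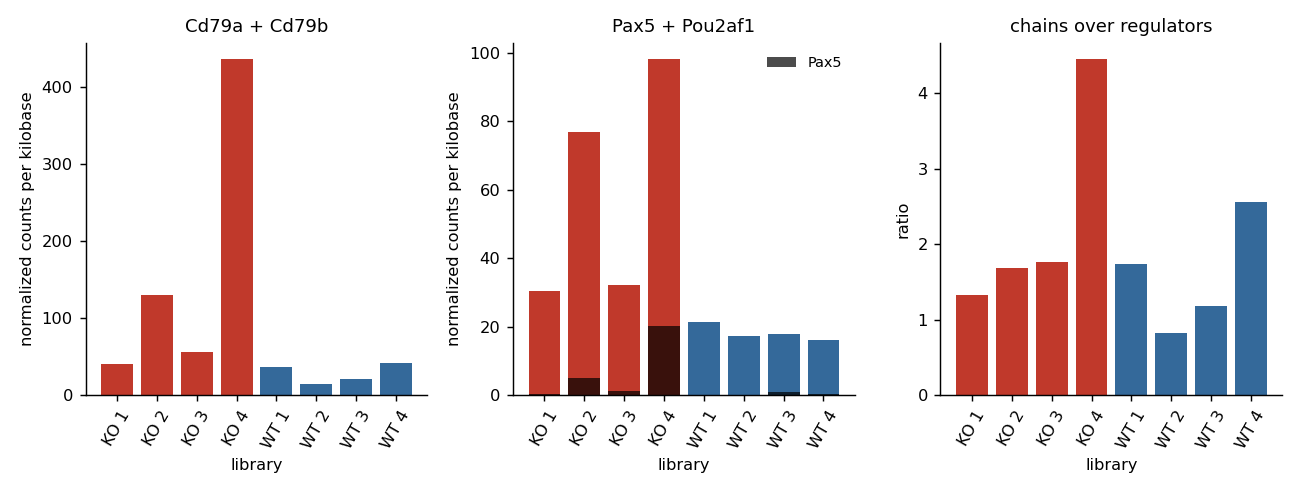
Summed normalized counts per kilobase of Cd79a and Cd79b (left), of Pax5 and Pou2af1 (centre, Pax5 in black) and their ratio (right), 1 bar per library, KO in red and WT in blue. The ratio is 4.45 in KO 4 and between 1.32 and 1.76 in the other KO libraries, inside the WT range of 0.825 to 2.56.

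Other genes of the pathway were taken from lists chosen with earlier results of these data known. A gene could be counted only if the table listed it, as it did for 1410 of the 19985 genes behind the authors' adjustment (7.06%). Of 26 other genes of B cell receptor signalling, 2 were listed (7.69%), both higher in KO. Syk, the kinase that binds the phosphorylated chains and acts in many other cell types, averaged 2519 ± 461 in KO and 1787 ± 243 in WT (SD, n = 4 each).

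Among 20 other B cell transcription regulators, 4 were listed (20.0%), and all 4 were higher in KO. Ebf1, which acts with Pax5 in early B cells, averaged 35.2 ± 13.3 normalized counts in KO and 11.8 ± 4.24 in WT, with every KO library above every WT library. Spib, an Ets factor of B cells, averaged 154 ± 203 in KO, or 54.8 without KO 4, and 32.6 ± 24.2 in WT, with overlap. Ikzf3, an Ikaros family factor, averaged 58.7 ± 43.2 in KO, or 38.8 without KO 4, and 23.3 ± 10.3 in WT, also with overlap. Irf4, a factor of activated B cells and plasma cells, averaged 66.4 ± 20.4 in KO and 25.8 ± 5.87 in WT, without overlap (SD, n = 4 each throughout). Ebf1 and Irf4 did not follow the library order of the 10 genes, since KO 2 was the lowest KO library for Ebf1 and the highest for Irf4.

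Of 30 other B cell surface and identity genes, 12 were listed (40.0%), 10 higher and 2 lower in KO. The heavy chain constant genes were among the higher ones: Ighm had a mean of 298 ± 339 normalized counts in KO libraries and 54.5 ± 25.4 in WT libraries, and Ighd one of 105 ± 172 in KO libraries and 1.78 ± 2.10 in WT libraries (SD, n = 4 each). Without KO 4 the KO means were 132 for Ighm and 19.2 for Ighd. The sources do not say how reads shared between immunoglobulin genes were assigned, so these values are uncertain. The lower ones were Cd40, which takes up help from T cells, at 30.3 ± 14.6 in KO and 77.6 ± 22.9 in WT, and Cd24a, at 10340 ± 1455 in KO and 14273 ± 1932 in WT (SD, n = 4 each). Every KO library was below every WT library for Cd24a, whereas the groups overlapped for Cd40. Both are also expressed outside B cells. For the genes of these lists, higher or lower, the cells that gave the reads were not tested. Over these 3 lists, 18 genes were listed, 16 were higher in KO, 8 had the library order of the 10 genes, and 0 had an adjusted p below 0.05 in the authors' deposited table, where all 18 had an unadjusted p below 0.05. The groups did not overlap for 6 of the 18 with KO above and for 1, Cd24a, with KO below. KO was above without overlap for 23.9% of all listed genes. A list of 12 defining B cell markers, the 10 genes among them, had all 12 listed and higher.

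Markers of other cells gave the following values. Of 16 T cell genes, 3 were listed, Cd4, Cd8b1 and Trbc1, and all 3 were higher in KO. Their sum was 127, 144, 132 and 159 normalized counts in KO libraries 1 to 4, against 59.3, 78.1, 70.8 and 72.8 in WT libraries 1 to 4. KO 2 and 3 of the WT libraries had 0 for Cd8b1, and Cd3e, Cd3d and Cd3g were not listed. The summed level did not overlap between the groups, as held for 23.9% of all listed genes, and these 3 genes were listed by that same comparison. Over the KO libraries the sum varied far less than that of the B cell genes, but its genes moved in different ways. Cd4 was highest in KO 4 (88.1, against 32.0 to 40.5 in the other KO libraries), where Trbc1 was lowest (60.7, against 77.1 to 107). Of 15 plasma cell genes, 2 were listed, Irf4 and Ighg2b, both higher in KO. Of 14 myeloid and dendritic cell genes and of 9 erythroid and platelet genes, 0 were listed, so their levels are not analysed here. Of 10 epithelial genes, Lgals4 alone was listed. That gene by itself does not measure the epithelial content of KO 4 or WT 4. The part of other cell types, epithelial cells included, in the B cell values was not tested.

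The listed genes most like the 10 were found by the Pearson correlation of log2(value + 1), less its group mean, with the mean of the 10 genes treated in the same way. It was computed over the 8 libraries for 1192 genes with a mean of at least 10 normalized counts. The 10 genes themselves had r from 0.72 (Bank1) to 0.97 (Cd79a), each being part of the mean it was set against. The median over the 1192 genes was 0.17, and 120 of them, members of the 10 included, had a higher r than Bank1. The closest 5 genes outside the 10 were Fcmr, the Fc receptor for IgM (r = 0.99), the unnamed MGP_C57BL6NJ_G0022546 (0.98), Siglecg, an inhibitory lectin of B cells (0.98), Camk2b (0.98) and H2-Eb2 (0.97). Rprm (0.96), Wdfy4 (0.96), Cxcr5, the chemokine receptor that guides B cells to follicles (0.94), and Slco2b1 (0.92) were also among the closest 10. Fcmr showed the shared pattern, with 2.89, 25.7, 4.45 and 132 normalized counts in KO libraries 1 to 4, against 1.95, 0, 1.01 and 5.06 in WT libraries 1 to 4. Camk2b, a calcium-dependent kinase, followed it at a higher level, with 186, 379, 263 and 751 in KO libraries 1 to 4, against 196, 126, 164 and 205 in WT libraries 1 to 4. With only 8 libraries, and KO 4 far from the rest, these correlations lean on few points, and 7 of the closest 10 were again among them when KO 4 was left out.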

How the data were processed

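Per the labels' protocols, TRIzol was used to extract total RNA from the tumours, and NEBNext Ultra Directional libraries, which keep strand, were prepared. HISAT2, DESeq2 and the build GRCh38 are named, without versions, in the submitters' processing notes. The build named is human but the identifiers belong to mouse strain C57BL/6NJ, so the coordinates of the table were not compared with those of GRCm38. Alignment settings and any use of strand in counting are not given in the sources used.

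The authors deposited a normalized signal (counts divided by a size factor) for each of 8 libraries, with group means, the log2 fold change of KO over WT, the p-value and the adjusted p-value. Each listed gene has a p below 0.05, so the deposited test was described and not repeated as a main result. The ratio of deposited adjusted to unadjusted p-values gave 19985 genes behind the adjustment (218 of 231 steps within 1 gene of it), and 18 genes with an adjusted p of exactly 1 were treated as having none. Deposited signal values times a size factor (0.933 to 1.12) fell within 0.001 of a whole number for 100% of values. The recovered reads give counting precision for listed genes only. Library depth is unknown.

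Groups and replicate numbers came from the sample titles. Means, SDs, ratios, orders and values per kilobase (by the gene length in the table) were computed with Python 3.11.15 and pandas 2.3.3. The B cell genes and all 11 marker lists were chosen with earlier results of these data known, so the differences of the 10 genes are no independent evidence. The values of some genes are left out here. Genes named were the 10, any listed gene of the lists, and the 10 other listed genes with a mean of at least 10 normalized counts most correlated with them. Libraries of 1 group differed by more than counting noise (chi-square per degree of freedom at least 21.8), so none were merged. As alternatives, the recovered reads were fitted again in R 4.3.3 by DESeq2 1.42.0 and by the quasi-likelihood test of edgeR 4.0.16. Limma-trend (limma 3.58.1) was fitted to the log2 of the deposited normalized counts plus a pseudocount. All fits were adjusted by Benjamini-Hochberg over 19985 genes. They rest on selected genes and are no independent test. The fits were tested on simulated data. Leaving out KO 4 from DESeq2, the correlations and the KO means was chosen after seeing the data.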

Additional observations from a re-analysis of the deposited data

Results flagged for a closer look

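In 10 of 97 groups of 4 libraries that were looked at (the 10 genes, their sum and ratios, and other genes of the lists or most like them), 1 library lay far from the other 3 by the 95% critical value of Dixon's ratio of gap to range. For independent groups of normally distributed values, chance gives about 1 in 20. The counts here are skewed and the groups share libraries, so 10 of 97 cannot be read as an excess over chance.

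Among the 10 genes this held for Cd79b in KO, where KO 4 had 251 normalized counts and the other KO libraries 24.1 to 49.3. The ratio of receptor chains to regulators was 4.45 in KO 4 and 1.32 to 1.76 in the other KO libraries. The ratio of Cd79a to Cd79b per kilobase was 2.78 in KO 2 and 1.38 to 1.53 in the other KO libraries.

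Among the listed B cell genes, KO 4 stood apart for Ighd with 361 normalized counts (2.89 to 49.3 in the others). Vpreb3, a B cell protein related to VpreB, stood apart in KO 2 with 31.1 (10.8 to 11.6). Ikzf3 was low in WT 3 with 8.09 (26.7 to 30.4 in the other WT libraries).

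Among the other lists, KO 4 stood apart for Efnb1 with 3001 normalized counts (1648 to 1839 in the others), for H2-Ob with 283 (7.71 to 54.7) and for Cd4 with 88.1 (32.0 to 40.5). Cd8b1 had 1.01 in WT 4 and was listed at 0 in the other WT libraries, a value of 1 read. The cause was not tested for any of these.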

How the results depend on the processing

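All 10 genes stayed higher in KO in each of 180 values from refits and other estimates. These values reuse the libraries in which the genes were chosen as higher, so their shared direction is no independent evidence. The count with an adjusted p below 0.05 (1 in the authors' deposited table, Bank1) was 2 with DESeq2 on the recovered reads (Cd22 and Bank1), which called 37 of all listed genes (2.59%, against 0.560% in the authors' table). It was 0 with DESeq2 without KO 4 (17 of all listed genes, 1.19%). It was also 0 with edgeR under the deposited size factors or TMM, with a minimum mean of 10, and with limma-trend at either pseudocount, all of which called 0 listed genes. Bank1 had adjusted p from 0.0314 to 1 over 16 refits. At an unadjusted p below 0.05 edgeR counted 9 of the 10 under the deposited size factors (77.9% of all listed genes) and 8 under TMM (62.3%), limma-trend with a pseudocount of 0.1 counted 5 (68.9%) and DESeq2 without KO 4 counted 6 (51.8%). With 1 library left out, edgeR counted 0 to 0 by adjusted p and 5 to 10 by unadjusted p (45.0% to 64.3% of all listed genes), with 5 without WT 2 (51.8%) or WT 3 (62.7%) and 6 without KO 4 (51.9%). The cause was not tested.

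The count of genes whose groups did not overlap was 4, against 23.9% of all listed genes with KO higher. It was 7 without KO 1 (30.4%), 4 without any other library (26.1% to 32.4%), 4 unscaled (24.6%) and 3 under TMM (13.7%), under which Cd79a overlapped. TMM over the listed genes shifted KO against WT by -0.16 on the log2 scale. The median log2 fold change, 2.70, was 1.72 without KO 4 and at most 3.01. The ratio of the median KO to the median WT chain-to-regulator ratio, 1.18, ran from 0.994 to 1.46 with 1 library left out, crossing 1 without WT 2 or WT 3. The shared KO order held for 8 genes, 9 unscaled and 7 under TMM.

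The replicate block, edgeR with the replicate number of the titles, gave 0 genes by adjusted p, 6 by unadjusted p (39.1% of all listed genes) and a median log2 fold change of 2.29. Same-numbered libraries did not deviate together (correlations of 0.05, -0.02, -0.19 and -0.24), so the numbers were not taken as pairs. Cr2, Blk, Fcrla, Bank1 and Pax5, each with 0 reads in a WT library, are limited most by counting.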

Other observations

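Genes of lymphoid follicles, from a list chosen with earlier results known, were listed for 6 of 17, all higher in KO and 0 with an adjusted p below 0.05 in the authors' deposited table, although all 6 had an unadjusted p below 0.05. Cxcl13, the chemokine that draws B cells into follicles, had 29.9, 161, 55.2 and 300.4 normalized counts in KO libraries 1 to 4, against 41.8, 68.8, 69.8 and 28.3 in WT libraries 1 to 4. KO 4 and KO 2 were again the highest, and KO 1 lay at the bottom of the WT range. Its receptor gene Cxcr5 had 3.86, 34.3, 5.34 and 126 in KO libraries 1 to 4, against 4.86, 0, 6.07 and 3.04 in WT libraries 1 to 4. H2-Ob, a B cell modulator of antigen presentation, averaged 92.3 ± 128 in KO and 11.4 ± 9.45 in WT, and its partner H2-Oa 16.0 ± 17.1 in KO and 0.982 ± 1.38 in WT (SD, n = 4 each). Without KO 4 the KO means were 81.9 for Cxcl13, 14.5 for Cxcr5, 28.8 for H2-Ob and 8.57 for H2-Oa.

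Of 10 germinal centre genes, 3 were listed. Mybl1 was lower in KO, at 71.0 ± 9.68 normalized counts in KO and 101 ± 14.6 in WT (SD, n = 4 each). Efnb1 was higher. The groups did not overlap for Mybl1 or Efnb1.

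Ighg2b, a constant gene of class-switched plasma cells, averaged 352 ± 128 normalized counts in KO and 112 ± 43.0 in WT (SD, n = 4 each), with a log2 fold change of 1.66 and an adjusted p of 0.0461 in the authors' deposited table. KO 3, at 167, lay below WT 3, at 175.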
